A study of Rattus norvegicus with 27 samples.

Results

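The cytosolic ribosome is built from a large and a small subunit, and its protein components are encoded by the ribosomal protein genes examined here in the rat hippocampus. They were taken as the probe sets whose only gene symbol in the platform annotation is a name of the Rpl, Rplp, Rps or Rpsa kind, with the brightest probe set kept for each gene. This gave 55 genes of 18166 on the array, 37 for large and 18 for small subunit proteins. Of these, 51 genes (35 large and 16 small) passed a filter on low values, and the 4 others, Rpl28, Rps9, Rpl27a and Rps27, were not tested because their mean log2 levels of 5.32, 5.3, 5.26 and 4.85 lay under the limit of 5.39. The nearest genes above that limit were Rps16 at 5.42 and Rpl15 at 5.51. Probe sets that name a ribosomal protein beside another symbol were not counted as members, which left out 13 symbols that occur only there, among them Rplp1, Rpl22, Rpl38 and Rps25.

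The rats were male Long Evans animals whose ages the labels do not give. In the ischemic group (8R), complete global brain ischemia of 10 min at normal temperature was produced by occluding both carotid arteries under hypovolemic hypotension, and 8 h of reperfusion followed. Non-ischemic controls (NIC) were sham operated. Hippocampal CA1 and CA3 were dissected, and each replicate pooled 1 region from 5 rats. Total RNA came from part of a post-mitochondrial supernatant and polysome RNA from material pelleted over sucrose, which is not resolved by the number of ribosomes per transcript. RNA of both fractions was hybridised to Affymetrix Rat Gene 2.0 arrays. There were 27 arrays in 8 groups: 4 arrays for 8R in CA1 total, CA3 total and CA3 polysome RNA, 3 for 8R CA1 polysome RNA, and 3 for each NIC group.

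Translation of ribosomal protein mRNAs is known to be controlled together in mammalian cells. Many of these mRNAs begin with a C followed by a run of pyrimidines, the 5′ terminal oligopyrimidine (TOP) tract, through which the kinase complex mTORC1 and the RNA-binding protein LARP1 regulate their entry into polysomes. In the hippocampus, many CA1 pyramidal neurons are lost with a delay of days once global ischemia has ended, and CA3 neurons are known as more resistant.

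To show that feature for genes the results turn on, 30 bases around the annotated start are printed below, from RefSeq on the build GRCr8. Each holds 15 bases before the start and 15 from the start on, 5′ to 3′ on the gene's own strand, and capitals mark the unbroken run of C and T that begins at the annotated start. Rpl10 (chrX:157205835-157205864, plus strand), Rpl35a (chr11:81235007-81235036, minus strand), Rpl19 (chr10:83519049-83519078, plus strand), Rpl9 (chr14:43247575-43247604, plus strand) and Rps3a (chr2:173827028-173827057, minus strand) have such a run.
Rpl10: caggcgtgggagcgtCTCTTTTCCTCTggc
Rpl35a: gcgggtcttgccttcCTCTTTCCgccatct
Rpl19: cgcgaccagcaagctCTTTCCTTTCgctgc
Rpl9: gacgaaggacgttctCTCTTTgccccatct
Rps3a: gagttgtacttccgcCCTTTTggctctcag
The run is short for Rpl4 (chr8:73566462-73566491, plus strand) and missing at the annotated starts of Rpl24 (chr11:58128391-58128420, minus strand), Rpl41 (chr7:1563483-1563512, minus strand) and Rpl26 (chr10:54109677-54109706, plus strand).
Rpl4: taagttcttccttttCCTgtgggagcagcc
Rpl24: gaatttagggaggagattctctaccctata
Rpl41: ggcggctcggaagtgacgacaccaagcacg
Rpl26: ctcgtgtcaacttacagaaccggaagtcgc
Of the 55 genes, 53 matched a RefSeq record, on 18 chromosomes, and 45 had a promoter sequence. A C at the start within a run of at least 5 pyrimidines was found in 16 of the 45 (35.6%), 12 of 30 large and 4 of 15 small subunit genes, against 881 of 33465 promoters in all (2.63%). These are annotated starts, and where transcription begins in these tissues was not measured.

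Other short motifs were searched on both strands, overlaps allowed, in the 300 bases from 250 before to 50 after the start. CTTTCC, part of many pyrimidine tracts, was found in 22 of the 45 ribosomal protein promoters (48.9%), against 26.4% of all promoters. CCGGAAG, the core bound by ETS family factors, was found in 13 (28.9%), against 8.75%. The GC box core GGGCGG was in 26 (57.8%), against 33.1%, and the TATA box letters TATAAA were in 5 (11.1%), against 14.2%. CTTTCC can overlap the run at the start.

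Intensities were taken as log2(intensity + 16), and differences on that scale understate the change of dim transcripts. Labelling started from an equal mass of RNA per array, so the values are relative to the other transcripts, and fewer cells of a type cannot be told apart from less RNA per cell. Arrays of a group correlated at 0.946 to 0.985 or more, and the median SD of a gene was 0.149 to 0.173 log2 in 8R and 0.098 to 0.109 log2 in NIC. P-values measure the spread between these pools, and the number of arrays limits the precision. The 8R arrays of pool 4, replicate 4 in 3 groups and replicate 3 in CA1 polysome RNA, stood apart. Their ribosomal protein levels were lower than those of the other 8R pools by a median of -0.25 in CA1 total, -0.24 in CA1 polysome, -0.23 in CA3 total and -0.12 log2 in CA3 polysome RNA, where the medians over all tested genes were 0, 0.02, -0.07 and -0.05. Counts of called genes between conditions and between fractions are therefore given with and without this pool. The summed level of 8 CA1 pyramidal markers was 1090 to 1790 in 8R CA1 total RNA and 507 to 670 in 8R CA3 total RNA, and it was 1450 to 1600 in NIC CA1 and 628 to 753 in NIC CA3 total RNA, which fits the region labels.

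In CA1 total RNA, ribosomal protein transcripts were higher after ischemia and reperfusion. Of the 51 genes, 40 rose and 0 fell (limma, adjusted p under 0.05), where 20.1% of all 12716 tested genes rose. The median log2 difference was 0.54, against 0.04 over all tested genes, and 49 of 51 lay above 0. Large and small subunit genes had like values, with 29 of 35 and 11 of 16 called higher and medians of 0.55 and 0.52. For 39 genes every 8R array lay above every NIC array, which held for 24.5% of all tested genes. Without pool 4, 44 genes rose, with a median of 0.63. Over all tested genes 4752 were then called in either direction, against 3343 with it.

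Rpl24, a large subunit protein at a bridge between the subunits, had the highest difference. Its intensities in CA1 total RNA were 220, 209, 190 and 170 in 8R, against 103, 82.9 and 81.7 in NIC. All 8R arrays lay above all NIC arrays, and the 2.03-fold rise (log2 difference 1.02 ± 0.13 SE) had a limma adjusted p of 6.97e-07. Rpl5, which carries the 5S rRNA into the large subunit and can bind the p53 regulator Mdm2, had 235, 223, 223 and 197 in 8R, against 99.5, 109 and 113 in NIC. These groups did not overlap either (1.91-fold, log2 difference 0.93 ± 0.14, limma adjusted p = 1.05e-05). Its partner in the 5S particle, Rpl11, differed less, by 0.39 log2 (limma adjusted p = 0.00568).

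Among small subunit genes the highest differences were those of Rps19, whose human counterpart is mutated in Diamond-Blackfan anemia, and Rps2, which lies near the mRNA entry channel. Rps19 had intensities of 418, 404, 321 and 287 in 8R, against 195, 171 and 173 in NIC, with no overlap (1.89-fold, log2 difference 0.92 ± 0.13, limma adjusted p = 7.31e-06). Rps2 had 939, 941, 807 and 648 in 8R, against 488, 429 and 472 in NIC, and rose by 0.81 ± 0.13 log2 (limma adjusted p = 3.17e-05). Rps6, the small subunit protein phosphorylated by S6 kinases downstream of mTORC1, rose by 0.53 log2 (limma adjusted p = 0.0054), a call lost without NIC replicate 2 (0.45 log2, limma adjusted p = 0.0524). Rpl35a, a large subunit protein also tied to Diamond-Blackfan anemia in humans, had 602, 551, 486 and 355 in 8R, against 270, 229 and 272 in NIC (0.89 ± 0.19 log2, limma adjusted p = 0.000533). Rplp0, the base of the stalk that recruits elongation factors, rose by 0.59 log2 (limma adjusted p = 0.00234). Rpl4, which lines the tunnel through which the new protein leaves, had 1150, 1030, 1060 and 1070 in 8R, against 746, 631 and 736 in NIC. Its groups were also apart, and it rose by 0.6 ± 0.08 log2 (limma adjusted p = 3.7e-06).

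The other 11 genes did not pass the test in CA1 total RNA. Rpl26, a large subunit protein known to bind p53 mRNA, had 65.9, 79.8, 64.2 and 70.7 in 8R, against 75.6, 75.7 and 92.6 in NIC, and these groups overlapped (-0.17 log2, limma adjusted p = 0.32). Rps29, a small zinc-binding protein of the small subunit, had 2850, 2750, 3030 and 3390 in 8R, against 3050, 2930 and 3010 in NIC, again with overlap (0 log2, limma adjusted p = 0.997). Rpl10, which joins the large subunit late and is needed for subunit joining, had 316, 333, 314 and 632 in 8R, against 395, 292 and 449 in NIC. Its pool 4 array was far above the rest, and the difference was 0.03 log2 (limma adjusted p = 0.943) with it and -0.21 log2 without it.

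**Figure D1:**
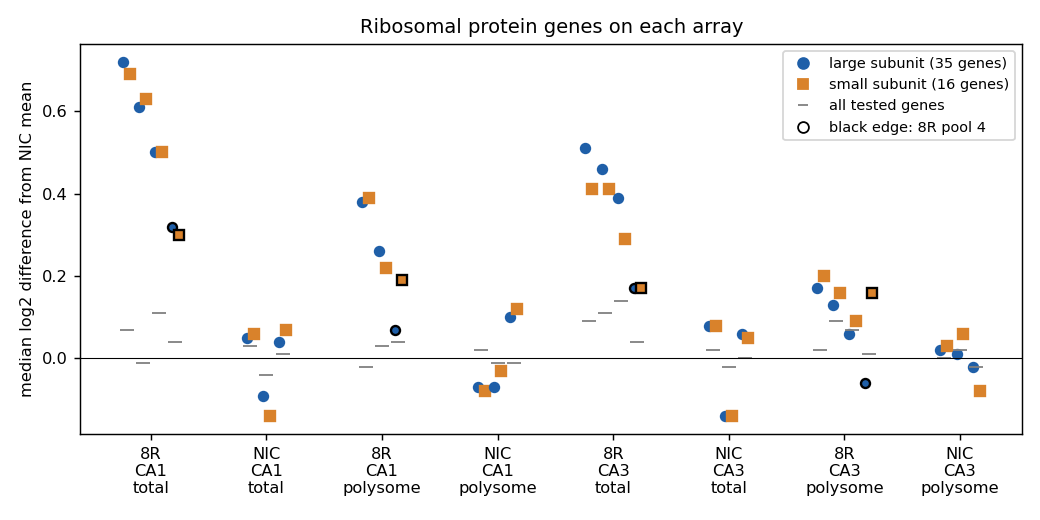
For each array, the median over large subunit genes (blue circles) and small subunit genes (orange squares) of the log2 difference from the NIC mean of the same region and fraction, with 8R left of NIC. Grey dashes give the median over all tested genes and black edges mark 8R pool 4; the 8R total RNA arrays of CA1 lie above all of their NIC arrays.

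The array medians show how the rise was spread over pools. Over all 51 genes, the median log2 difference from the NIC mean in CA1 total RNA was 0.71, 0.62, 0.5 and 0.32 in the 8R arrays, against 0.05, -0.1 and 0.05 in the NIC arrays. The lowest 8R value was that of pool 4. In CA3 total RNA the medians were 0.48, 0.46, 0.35 and 0.17 in 8R, against 0.08, -0.14 and 0.05 in NIC, again with pool 4 lowest and no overlap.

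In CA3 total RNA, 26 of the 51 genes rose and 0 fell, where 14.2% of all tested genes rose and 1.34% fell. The median log2 difference was 0.37, against 0.08 over all tested genes, and 46 of 51 lay above 0. By subunit, 21 of 35 large subunit genes rose with a median of 0.38, and 5 of 16 small subunit genes with a median of 0.3. Every 8R array lay above every NIC array for 27 genes, against 20.2% of all tested genes. The count of called genes was 14 without 8R CA3 total replicate 1 and 10 without NIC CA3 total replicate 2. Without pool 4 it was 34 higher and 2 lower, with a median of 0.4. Over all tested genes 4362 were then called in either direction, against 1975 with pool 4.

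Rpl18, a large subunit protein, had the highest difference in CA3 total RNA. Its intensities were 831, 823, 841 and 636 in 8R, against 481, 437 and 476 in NIC, without overlap (1.65-fold, log2 difference 0.72 ± 0.14, limma adjusted p = 0.000479). Rpl9, another large subunit protein, had 867, 810, 764 and 519 in 8R, against 462, 407 and 504 in NIC. Its groups were apart as well, and it rose by 0.65 ± 0.18 log2 (limma adjusted p = 0.0132), a call lost without 8R CA3 total replicate 1 (0.57, limma adjusted p = 0.0566) or NIC CA3 total replicate 2 (0.57, limma adjusted p = 0.0849).

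Several genes that led in CA1 also rose in CA3. Rpl5 had 245, 225, 212 and 164 in 8R CA3 total RNA, against 117, 125 and 150 in NIC, and rose by 0.63 ± 0.14 log2 (limma adjusted p = 0.00274). Rpl24 had 190, 215, 197 and 145 in 8R, against 128, 103 and 140 in NIC, and rose by 0.53 log2 (limma adjusted p = 0.00455). For both genes the lowest 8R array was above the highest NIC array. Rpl4 had 1170, 1150, 1080 and 985 in 8R, against 749, 705 and 842 in NIC (0.51 ± 0.08 log2, limma adjusted p = 0.000129). The Rpl24 call was lost without NIC replicate 2, and so was that of Rps19, which rose by 0.53 log2 (limma adjusted p = 0.00726). Both were at 0.42 log2 without it. Rpl35a rose by 0.56 ± 0.19 log2 (limma adjusted p = 0.0363). Rpl26 had 60.3, 58.6, 64.4 and 79.6 in 8R, against 99.1, 71.9 and 85.4 in NIC, with overlapping groups and the most negative difference of the 51 (-0.31 ± 0.12 log2, limma adjusted p = 0.0908). Without 8R CA3 total replicate 4 it was called lower (-0.39 log2, limma adjusted p = 0.0277), and the Rpl35a call was lost without 8R replicate 1, 2 or 3 or NIC replicate 2 or 3 (0.42 to 0.63 log2).

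The response of total RNA was compared between regions directly, as the CA1 difference minus the CA3 difference. The median over the 51 genes was 0.21, and 49 lay above 0, but 0 genes passed the adjusted test and 5 had an unadjusted limma p under 0.05, all with the larger response in CA1. Over all tested genes 0.0236% were called in that direction. Rpl24 differed most, by 0.49 ± 0.18 log2 (limma adjusted p = 0.843). The larger number of calls in CA1 is thus not shown to be a regional difference for any single gene. In polysome RNA the median was 0.14, with 0 genes called, 3 at an unadjusted limma p under 0.05, and 0.00786% of all tested genes called higher.

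Markers of astrocytes and microglia were also higher on the 8R arrays of total RNA, and those of oligodendrocytes differed in direction between regions. The summed intensity of 11 astrocyte markers was 6040 to 6940 in 8R CA1 total RNA, against 4770 to 4960 in NIC, and 4800 to 6150 in 8R CA3 total RNA, against 4450 to 4540 in NIC. In CA1 5 of the 11 passed the test as higher, where 20.1% of all tested genes did, and in CA3 3 did, where 14.2% did. Gfap, the astrocyte filament protein, was among them in both regions, at 0.96 and 1.04 log2. The sum of 11 microglia markers was 567 to 662 in 8R CA1 total RNA, against 482 to 520 in NIC. In CA3 total RNA it was 546 to 619 in 8R, against 431 to 483 in NIC. Of these 11 markers, 9 passed the filter on low values. The sum of 11 oligodendrocyte markers was 3210 to 3730 in 8R CA1 total RNA, against 3430 to 4090 in NIC, with 1 called higher and 2 lower, and 2580 to 2860 in 8R CA3 total RNA, against 2080 to 2440 in NIC, with 3 called higher and 0 lower. None of these markers was near 0 in any group. The sum of 8 CA1 pyramidal markers in CA1 total RNA was 1090 to 1790 in 8R, against 1450 to 1600 in NIC. Of these 8, 3 were called lower and 1 higher, where 6.15% of all tested genes fell and 20.1% rose. Their median log2 difference was -0.29, with 6 below 0. In CA1 polysome RNA all 8 lay below 0 (median -0.36), with 1 called lower, where 3.46% of all tested genes fell. The part of the cell makeup in the ribosomal protein differences was not tested.

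In CA1 polysome RNA far fewer ribosomal protein transcripts passed the test. Of the 51, 4 rose and 0 fell, where 4.87% of all tested genes rose, so the share is not far from the background. The median log2 difference was 0.24, against 0.01 over all tested genes, and 48 of 51 lay above 0. Large subunit genes had 2 calls and a median of 0.2, small subunit genes 2 calls and a median of 0.28. For 12 genes every 8R array lay above every NIC array, against 13% of all tested genes. At an unadjusted limma p under 0.05, 22 genes were higher, as were 1473 of all 12716 tested genes. Without pool 4 the count of rises was 22, with a median of 0.31, and it was 0 without 8R CA1 polysome replicate 1, 9 without 8R replicate 2, 1 without NIC replicate 2 and 2 without NIC replicate 3.

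The 4 called genes in CA1 polysome RNA were Rpl10, Rps3a, Rpl23a and Rps14, the last of which was chosen after its values were seen. Rpl10 had 303, 253 and 437 in 8R, against 229, 154 and 139 in NIC, without overlap and with pool 4 highest (1.82-fold, log2 difference 0.87 ± 0.24, limma adjusted p = 0.0203). Rpl23a, a large subunit protein at the exit of the peptide tunnel, had 356, 342 and 249 in 8R, against 219, 200 and 231 in NIC (0.5 ± 0.13 log2, limma adjusted p = 0.013). Rps3a, a small subunit protein, had 388, 287 and 287 in 8R, against 160, 257 and 232 in NIC (0.55 ± 0.17 log2, limma adjusted p = 0.0367). In each of these the lowest 8R array was above the highest NIC array. Rps14, lost with human chromosome arm 5q in a form of anemia, had 254, 243 and 207 in 8R, against 154, 158 and 187 in NIC (0.46 ± 0.12 log2, limma adjusted p = 0.0164). Rpl41, the shortest ribosomal protein, had 625, 575 and 323 in 8R, against 349, 282 and 293 in NIC, and the pool 4 array lay among the NIC arrays (0.64 ± 0.21 log2, limma adjusted p = 0.0592); without it the difference was called (0.93 log2, limma adjusted p = 0.00916). None of the 4 calls held without 8R CA1 polysome replicate 1. The Rpl10 call was also lost without 8R replicate 3 (0.66 log2) or NIC replicate 2 or 3 (0.8 and 0.74 log2), that of Rps3a without 8R replicate 3 or NIC replicate 1 or 3 (0.62, 0.36 and 0.6 log2), that of Rpl23a without NIC replicate 2 (0.44 log2), and that of Rps14 without NIC replicate 1 or 2 (0.41 and 0.43 log2).

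In CA3 polysome RNA, 3 of the 51 genes rose and 0 fell, where 2.38% of all tested genes rose. The median log2 difference was 0.1, against 0.04 over all tested genes, and 37 of 51 lay above 0. This median was -0.01 when each array was centred on its own median, so its direction depends on the scaling. For 8 genes the 8R arrays all lay above the NIC arrays, against 13.2% of all tested genes. The count was 0 without any 1 of the 3 NIC replicates and 1 without 8R replicate 1 or 2, and without pool 4 it was 4 higher and 1 lower.

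The 3 called genes in CA3 polysome RNA were Rpl10, Rpl23a and Rps29. Rpl10 had 230, 250, 206 and 433 in 8R, against 152, 127 and 160 in NIC, with no overlap and pool 4 again highest (1.76-fold, log2 difference 0.81 ± 0.22, limma adjusted p = 0.042). Rpl23a had 334, 297, 288 and 247 in 8R, against 199, 216 and 201 in NIC (0.46 ± 0.12 log2, limma adjusted p = 0.03). Rps29 had 1800, 1480, 1520 and 1790 in 8R, against 1220, 1320 and 1280 in NIC (0.36 ± 0.09 log2, limma adjusted p = 0.0315). Their groups were apart in all 3 cases. Other probe sets of these genes gave other sizes. The second Rpl10 probe set differed by 0.22 log2 (0.05 in CA1 polysome RNA) and the others of Rps29 by 0.1 and -0.01 log2, while that of Rpl23a differed by more, 0.71 log2 (1.08 in CA1 polysome RNA). Rpl26 had 47.1, 46.1, 64 and 71.3 in 8R, against 75, 78.1 and 71.1 in NIC, where the pool 4 array overlapped NIC (-0.33 log2, limma adjusted p = 0.146). Besides the NIC replicates, leaving out 8R replicate 2 or 4 ended the Rpl10 call (0.85 and 0.59 log2), 8R replicate 1 or 2 that of Rpl23a (0.4 and 0.45 log2) and 8R replicate 1 or 4 that of Rps29 (0.32 log2 in both). Astrocyte marker sums in polysome RNA were 6630 to 7960 in 8R CA1, against 6000 to 6120 in NIC CA1, and 5440 to 6030 in 8R CA3, against 4900 to 5070 in NIC CA3. Microglia sums were 616 to 805 in 8R CA1, against 490 to 517 in NIC CA1. In CA3 the microglia sums were 507 to 665 in 8R, against 427 to 439 in NIC. Oligodendrocyte sums were 3340 to 4110 in 8R CA1, against 3680 to 4600 in NIC CA1, and 2350 to 2630 in 8R CA3, against 2020 to 2540 in NIC CA3. The part of these cell types in the calls was not tested.

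**Figure D2:**
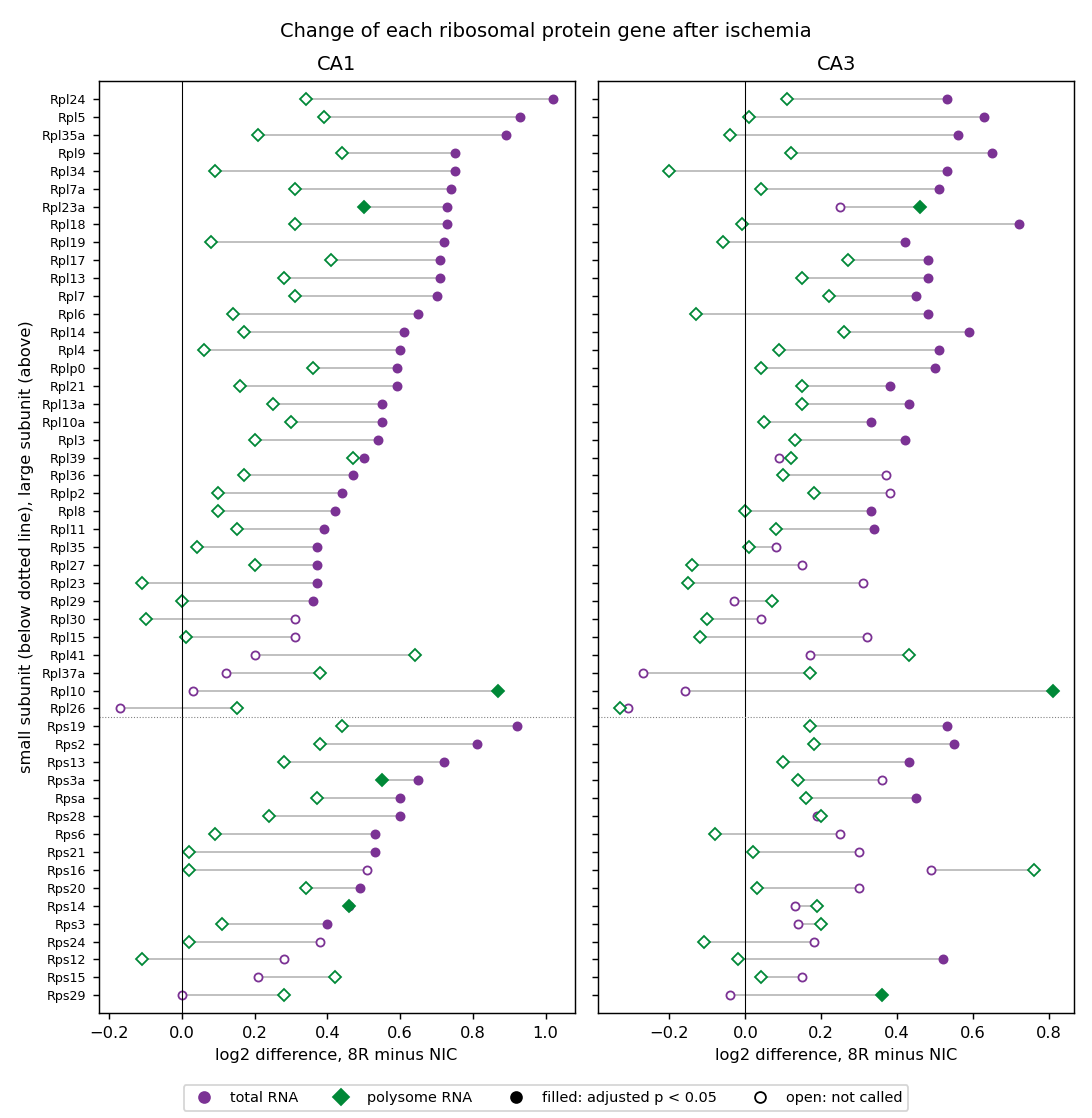
The log2 difference, 8R minus NIC, of each tested ribosomal protein gene in CA1 (left) and CA3 (right), for total RNA (purple circles) and polysome RNA (green diamonds), with filled symbols for a limma adjusted p under 0.05 and small subunit genes below the dotted line. Most total RNA symbols lie to the right of 0 and of their polysome symbols, and Rpl10 is among the exceptions.

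**Figure D3:**
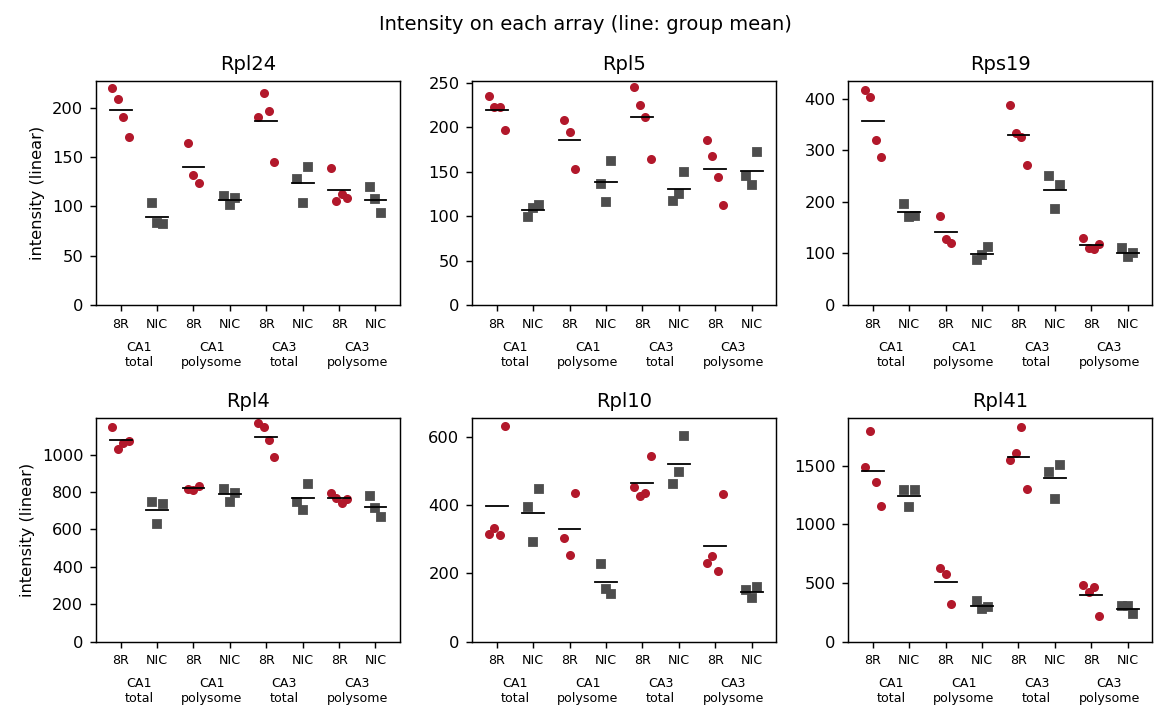
Intensities on a linear axis for Rpl24, Rpl5, Rps19, Rpl4, Rpl10 and Rpl41 on every array, with 8R (red circles) left of NIC (grey squares) in each region and fraction and a line at each mean. In CA1 total RNA the 8R and NIC arrays are apart for Rpl24, Rpl5, Rps19 and Rpl4 and overlap for Rpl10 and Rpl41.

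The change of the polysome to total ratio was tested as the polysome difference minus the total difference. In CA1 its median over the 51 genes was -0.34 log2 (-0.2 with quantile normalization), against -0.06 over all tested genes, and 44 of 51 lay below 0. The ratio fell for 2 genes, Rpl24 and Rpl4, and rose for 0, where it fell for 3.41% of all tested genes. It fell for 10 genes and rose for 2 without pool 4, and between 0 and 6 genes were called when any single array was left out. With the pool number fitted as a random block, it fell for 13 genes and rose for 1. Over all 12716 tested genes, calls in either direction were 486 in the main fit, 1092 without pool 4 and 1792 with the block. Rpl24 had 164, 132 and 124 in 8R CA1 polysome RNA, against 110, 101 and 108 in NIC, a difference well below that of total RNA, and its ratio fell by 0.68 ± 0.19 log2 (limma adjusted p = 0.0361). For Rpl4 the polysome values were 817, 811 and 833 in 8R, against 817, 748 and 797 in NIC, and they overlapped while total RNA did not. The Rpl4 ratio fell by 0.54 ± 0.12 log2 (limma adjusted p = 0.0157) and lost its call in 1 fit that left out a single array (NIC total replicate 2, -0.47 log2, limma adjusted p = 0.0787), whereas the Rpl24 call was lost in 8 of these fits (without 8R total replicate 1 or 2, NIC total replicate 2 or 3, 8R polysome replicate 3 or any NIC polysome replicate), with values of -0.71 to -0.61 in them. Rpl10 had the most positive ratio change (0.84 ± 0.32 log2, limma adjusted p = 0.125), which passed without 8R CA1 total replicate 4 (1.07 log2, limma adjusted p = 0.031).

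In CA3 the median ratio change was -0.28 log2 (-0.14 with quantile normalization), against -0.07 over all tested genes, with 40 of 51 genes below 0. No ribosomal protein gene passed the test, with 15 lower and 3 higher at an unadjusted limma p under 0.05. By the adjusted test, which is stricter, 0.11% of all tested genes were called lower. Without 8R CA3 total replicate 4 the adjusted calls were 2 higher and 7 lower, and without all pool 4 arrays 2 higher and 13 lower. With the pool number fitted as a random block they were 2 higher and 10 lower. Calls over all 12716 tested genes, in either direction, were 21 in the main fit, 1258 without pool 4 and 1356 with the block. Rpl18 had 591, 544, 589 and 702 in 8R CA3 polysome RNA, against 616, 693 and 526 in NIC, which overlapped while its total RNA was apart (ratio change -0.73 log2, limma adjusted p = 0.0725). Rpl34, a large subunit protein, had the same ratio change of -0.73 log2 (limma adjusted p = 0.0996). Both passed without 8R CA3 total replicate 4, at -0.83 log2 for Rpl18 (limma adjusted p = 0.019) and -0.82 log2 for Rpl34 (limma adjusted p = 0.0291). Rpl10 again had the most positive value, 0.97 ± 0.31 log2 (limma adjusted p = 0.114), which passed without 8R CA3 total replicate 4 (1.05, limma adjusted p = 0.0445).

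Within each group of rats, most ribosomal protein transcripts were lower in polysome than in total RNA. In 8R CA1, 38 of the 51 were lower and 0 higher, with a median of -0.64 log2, where 5.9% of all tested genes were lower and their median was 0.18. In 8R CA3, 45 were lower and 0 higher, with a median of -0.75, against 12.9% lower and a median of -0.01 over all tested genes. In NIC CA1, 22 were lower and 1 higher, with a median of -0.23, where 4.62% of all tested genes were lower, 39.4% were higher and their median was 0.2. In NIC CA3, 31 were lower and 2 higher, with a median of -0.47, against 16.9% lower, 21.5% higher and a median of 0. Without pool 4, 41 were lower in 8R CA1 (median -0.6), 46 in 8R CA3 (-0.79), 26 in NIC CA1 with 4 higher (-0.23) and 34 in NIC CA3 with 3 higher (-0.47). Quantile normalization gave 37 lower and a median of -0.51 in NIC CA1. Small subunit genes had the lower medians in all 4 groups: -0.71 against -0.53 for large subunit genes in 8R CA1, -0.83 against -0.68 in 8R CA3, -0.44 against -0.21 in NIC CA1 and -0.74 against -0.45 in NIC CA3. The difference between subunits was not tested.

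How the fractions were scaled to each other is not given in the sources used here. Probe sets near 0 on every array, 4 in number, differed by up to 0.06 log2 between conditions within a region and fraction but ranged over 0.21 to 0.32 log2 across the 8 groups, so small differences between fractions or regions may carry a scaling offset, which was not tested.

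Rpl41 was the gene furthest below its total RNA level in all 4 groups. It had 625, 575 and 323 in 8R CA1 polysome RNA, against 1490, 1800, 1360 and 1160 in 8R CA1 total RNA, a log2 difference of -1.52 ± 0.2 (2.87-fold lower, limma adjusted p = 2.12e-06). In NIC CA1 it had 349, 282 and 293 in polysome RNA, against 1290, 1150 and 1290 in total RNA (-1.97 ± 0.21 log2, 3.91-fold lower, limma adjusted p = 8.99e-08). The fractions did not overlap in either condition. In CA3 it was 3.95-fold lower in 8R and 4.75-fold lower in NIC (limma adjusted p = 3.61e-09 and 7.39e-09). Another probe set of Rpl41 was also lower in polysome RNA, by -1.45 in 8R CA1, -1.83 in 8R CA3, -2.25 in NIC CA1 and -2.5 log2 in NIC CA3.

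Several other genes were far below their total RNA level. Rpl39, a large subunit protein in the wall of the exit tunnel, differed by -1.14 in 8R CA1, -1.27 in 8R CA3, -1.11 in NIC CA1 and -1.3 log2 in NIC CA3. Rps21, a small subunit protein, differed by -1.36 in 8R CA1 and -1.45 log2 in 8R CA3, and Rps28, which takes part in forming the mRNA exit channel, by -1.27 in 8R CA3 and -1.28 log2 in NIC CA3. All of these were called. Rps19 differed by -1.25 in 8R CA1 and -1.37 log2 in 8R CA3, and Rpl10 was second lowest in NIC CA3, at -1.73 log2. On the other side, 2 genes were called higher in polysome RNA in NIC CA3, Rps12 (0.42 log2, limma adjusted p = 0.0222) and Rpl18 (0.38 log2, limma adjusted p = 0.0399), and 1 in NIC CA1, Rpl7a (0.41 log2, limma adjusted p = 0.0327). These 3 calls were near the threshold, and each was lost when any 1 of several arrays was left out. That of Rps12 was lost without NIC CA3 polysome replicate 1 or 2 or total replicate 2 (0.33 to 0.4 log2). That of Rpl18 was lost without NIC CA3 polysome replicate 1 or 2 or any total replicate (0.29 to 0.4 log2). The Rpl7a call was lost without NIC CA1 polysome replicate 2 or 3 or any total replicate (0.36 to 0.41 log2).

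Rpl10 differed in pattern between conditions. Its polysome level was below total by -1.06 log2 in NIC CA1 (limma adjusted p = 0.000529) and -1.73 log2 in NIC CA3 (limma adjusted p = 3.53e-06), while in 8R it differed by -0.23 log2 in CA1 (limma adjusted p = 0.434, and 0.01 log2 without 8R CA1 total replicate 4) and -0.75 log2 in CA3 (limma adjusted p = 0.00792). The test of this difference between conditions is the ratio change above, which did not pass in either region with all arrays and no pool block. Another probe set of Rpl10, with a mean log2 level of 5.76, gave ratio changes of -0.14 in CA1 and -0.19 in CA3, so the probe sets of this gene disagreed in sign.

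**Figure D4:**
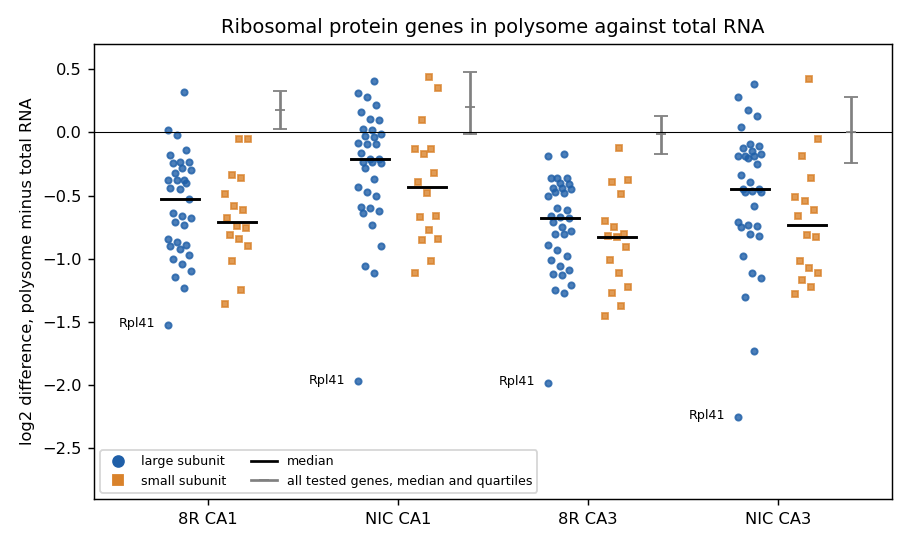
Polysome minus total log2 level of each tested ribosomal protein gene in 8R CA1, NIC CA1, 8R CA3 and NIC CA3, with large subunit genes in blue, small subunit genes in orange, black bars for medians and grey for the median and quartiles of all tested genes. The medians over the 51 genes are -0.64, -0.23, -0.75 and -0.47, and Rpl41 is the lowest point in each group.

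Between regions few ribosomal protein transcripts passed the test when arrays were fitted without regard to pool number. In total RNA, 0 genes were called between CA1 and CA3 in 8R (median 0.07, 1 at an unadjusted limma p under 0.05) and 0 in NIC (median -0.16, 7 at an unadjusted limma p under 0.05). In 8R polysome RNA 4 were higher in CA1, with a median of 0.2 that matched the 0.19 of all tested genes, of which 24.1% were called higher, and both medians were near 0 with quantile normalization (0.05 and -0.01). These were Rpl26 (0.56 log2, limma adjusted p = 0.00164), Rps15 (0.42, 0.0261), Rpl7 (0.36, 0.0396) and Rps14 (0.33, 0.033), where Rpl7 and Rps14 were chosen after their values were seen. The count was 1 without 8R CA1 polysome replicate 1 or 8R CA3 polysome replicate 3, 2 without 8R CA3 polysome replicate 2, 7 without 8R CA1 polysome replicate 3 and 14 without pool 4. It was 16 with the pool number fitted as a random block and 31 with it as a fixed block. Calls in either direction over all 12716 tested genes were 3223 in the main fit and 2892 without pool 4. They were 4452 with the random and 4516 with the fixed block. The Rps15 call was lost without 8R CA1 polysome replicate 1 or 3 or 8R CA3 polysome replicate 1, 2 or 3 (0.34 to 0.38 log2). That of Rpl7 was lost without any 8R CA1 polysome replicate or 8R CA3 polysome replicate 3 or 4 (0.27 to 0.39 log2), and that of Rps14 without 8R CA1 polysome replicate 1 or 2 or 8R CA3 polysome replicate 2 or 3 (0.27 to 0.31 log2). Rpl26 had 103, 79.7 and 90.9 in 8R CA1 polysome RNA, against 47.1, 46.1, 64 and 71.3 in 8R CA3 polysome RNA, with no overlap. In NIC polysome RNA only Rps16, a dim probe set near the filter limit, was higher in CA1 (0.73 log2, limma adjusted p = 0.0338). The median was 0.05, against 0.23 over all tested genes, of which 27.7% were called higher, and it turned to -0.15 with quantile normalization and -0.17 with median centring. The Rps16 call was lost without NIC CA1 polysome replicate 1 or 3 or NIC CA3 polysome replicate 2 or 3 (0.58 to 0.78 log2).

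Genes with a pyrimidine run that begins with C at the annotated start did not stand apart in total RNA. The 14 tested genes with a C and at least 5 pyrimidines had a median log2 difference of 0.60 in CA1 total RNA, against 0.55 for 28 with another start. In CA3 total RNA the medians were 0.39 and 0.42. The other starts include runs that begin with T, such as those of Rpl13 (8 bases) and Rps24 (9 bases). In CA1 polysome RNA the medians were 0.39 and 0.17, and in CA3 polysome RNA 0.08 and 0.10. Polysome minus total medians were -0.78 against -0.51 in 8R CA1 and -0.45 against -0.15 in NIC CA1. In CA3 they were -0.92 against -0.66 in 8R and -0.59 against -0.41 in NIC. The sequences were read from annotation, not from these RNAs, and no test was made between the starts.

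Transcripts with a known TOP tract that encode other proteins had similar values. Of 17 tested, 15 rose and 0 fell in CA1 total RNA (median 0.48), where 20.1% of all tested genes rose. Those 15 included Eef1b2, an elongation factor subunit, at 0.77 log2 (limma adjusted p = 0.00021), the initiation factor subunit Eif3h at 0.67, and Tpt1 and Naca, both at 0.66. In CA3 total RNA 11 rose and 0 fell (median 0.34), where 14.2% of all tested genes rose. In CA1 polysome RNA 1 rose, Rack1, a small subunit scaffold protein (0.42 log2, limma adjusted p = 0.0281), where 4.87% of all tested genes rose. In CA3 polysome RNA 0 rose, against 2.38% of all tested genes. At an unadjusted limma p under 0.05, 3 were higher there, as were 1844 of all 12716 tested genes. The Rack1 call was lost without 8R replicate 1 or any NIC replicate (0.34 to 0.43 log2). The median ratio change was -0.42 in CA1 and -0.25 in CA3. The histone chaperone gene Nap1l1 was the only 1 called, lower in CA1 (-0.7 log2, limma adjusted p = 0.0221), where the ratio fell for 3.41% of all tested genes. This call was lost without 8R total replicate 1, NIC total replicate 2, 8R polysome replicate 3 or NIC polysome replicate 1 (-0.68 to -0.61 log2). Unlike the ribosomal protein genes, these 17 transcripts had polysome minus total medians near 0, at 0 in 8R CA1, -0.19 in 8R CA3, 0.18 in NIC CA1 and -0.02 in NIC CA3. No test was made between these lists.

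Genes of ribosome assembly also rose in total RNA. Of 44 tested, 31 rose and 1 fell in CA1 (median 0.54), where 20.1% of all tested genes rose and 6.15% fell (median 0.04). In CA3 23 rose and 0 fell (median 0.36), where 14.2% of all tested genes rose and 1.34% fell (median 0.08). The box C/D snoRNA protein gene Nop58 was highest in CA1 at 1.38 log2 (limma adjusted p = 4.55e-09), followed by Utp3 (1.35), Wdr43 (1.07) and Rpf2 (0.94), all of which act in pre-rRNA processing or in assembling subunits. In CA1 the polysome to total ratio fell for 9 of the 44 and rose for 0 (median -0.36). It fell for 3.41% of all tested genes. Among the 9, Rpf2 was at -0.96, Nop58 at -0.9 and Utp3 at -0.8 log2. These ratio calls were lost without NIC CA1 total replicate 2 (-0.92 log2 for Rpf2, -0.84 for Nop58 and -0.73 for Utp3), and that of Rpf2 also without 8R total replicate 1, NIC total replicate 3, 8R polysome replicate 3 or NIC polysome replicate 1 or 3. Within groups, assembly genes were more often called higher than lower in polysome RNA relative to total RNA, as all tested genes were outside 8R CA3. In 8R CA1 17 of the 44 were higher and 2 lower, where 28.5% of all tested genes were higher and 5.9% lower. In 8R CA3 11 were higher and 7 lower, against 7.7% of all tested genes higher and 12.9% lower. In NIC CA1 35 were higher and 1 lower, against 39.4% and 4.62% of all tested genes. In NIC CA3 28 were higher and 2 lower, against 21.5% and 16.9% of all tested genes.

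Among 22 tested regulators of ribosomal protein mRNA translation, 7 rose and 4 fell in CA1 total RNA, where 20.1% of all tested genes rose and 6.15% fell. Ddit4, an inhibitor of mTORC1 induced by stress, rose by 0.81 log2 in CA1 (limma adjusted p = 0.000182) and by 0.72 log2 in CA3. Rptor, the scaffold of mTORC1, fell by 0.38 log2 in CA1 total RNA (limma adjusted p = 0.00356), and Mtor itself fell by 0.33 log2, a call lost without 8R replicate 1 or 2 or any NIC replicate (-0.36 to -0.28 log2). In CA1 polysome RNA 0 regulators rose and 2 fell, against 3.46% of all tested genes that fell, namely Deptor, an inhibitor of mTOR (-0.55 log2), and Mtor (-0.38 log2). Both calls were lost without 8R replicate 1 or 3 or NIC replicate 1 or 2, and that of Mtor also without NIC replicate 3 (-0.52 to -0.46 log2 for Deptor, -0.42 to -0.3 log2 for Mtor). In CA3 polysome RNA the cap-binding inhibitor genes Eif4ebp1 (0.57 log2, limma adjusted p = 0.00434) and Eif4ebp2 (0.35 log2) rose, where 2.38% of all tested genes rose. There 0 regulators fell, with 1 lower at an unadjusted limma p under 0.05. The Eif4ebp2 call was lost without 8R replicate 2, 3 or 4 or NIC replicate 1 or 3 (0.24 to 0.37 log2). Larp1 was higher in polysome than in total RNA in all 4 groups, by 0.73 in 8R CA1, 0.62 in 8R CA3, 0.78 in NIC CA1 and 0.52 log2 in NIC CA3.

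Probe sets that ribosomal protein genes share with near-identical copies are uncertain, since pseudogene transcripts may bind the same probes. Of the 28 other probe sets of member genes above the filter, 26 had the sign of the brightest probe set in CA1 total RNA, 27 in CA1 polysome RNA, 24 in CA3 total RNA and 22 in CA3 polysome RNA. Probe sets of a gene need not be independent readings. A pair of Rpl39 probe sets gave the same rounded difference in each of these comparisons. The agreement in sign therefore cannot tell which transcripts were bound. The 28 probe sets above the filter that name a ribosomal protein beside another symbol had median differences of 0.63 in CA1 total, 0.17 in CA1 polysome, 0.31 in CA3 total and 0.09 log2 in CA3 polysome RNA. Probe sets with the symbol of a copy or pseudogene, 93 of 143 of which passed the filter, had medians of 0.3 and 0.19 in CA1 total and polysome RNA and 0.07 and 0.18 in CA3 total and polysome RNA.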

How the data were processed

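Total and polysome RNA of CA1 and CA3 from 8R and NIC rats was measured on 27 arrays, grouped by the labels' titles. Each array's deposited file gives 1 linear intensity per probe set, for which the submitters' processing notes name PLIER and Affymetrix Expression Console and no version. How arrays were corrected for background and scaled to each other is not given in the sources used here. Gene symbols came from the platform annotation, and of 36685 probe sets 18511 had 1 symbol, 575 several and 17599 none.

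The members, lists and alternatives were chosen with earlier results of these data known, so none of them is independent support. Values were log2(intensity + 16). A filter at the 30th percentile of gene means (5.39 log2) kept 12716 genes. The 27 arrays entered a single model in limma 3.58.1 (R 4.3.3) that held 8 group means and let the prior variance follow intensity, with residual degrees of freedom of 19 and prior degrees of freedom of 10.1. A gene was called when its two-sided p, after Benjamini-Hochberg adjustment over every tested gene of the comparison, was under 0.05. Lists are described by counts and medians, with no test of a list. Named in a comparison of conditions or fractions were the 5 members with the highest and the 5 with the lowest difference (3 and 3 between regions), genes fixed by their role, all genes of a count of 5 or fewer, and up to 4 genes of each other list. Comparisons that share control arrays are not independent, and regions and fractions with the same pool number may come from the same rats but were fitted as separate arrays.

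The alternatives were other pseudocounts (4 and 64), filters, quantile normalization, centring, averaging probe sets, fitting the compared groups alone, array weights, no trend, the pool as a block and leaving out arrays. Simulated data over 12716 genes took gene means and spread from all arrays, not from CA1 total RNA alone. In the comparison of 8R with NIC in CA1 total RNA, 65 of 100 genes changed by a log2 of 0.5 were called. Of 100 genes changed by a log2 of 1, 98 were called, with 13 false calls. These counts need not hold at the spread of CA1 total RNA or where arrays of a pool are correlated.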

Additional observations from a re-analysis of the deposited data

Results flagged for a closer look

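Of 117 sets of values tested for a single far array in 8R groups of 4, 12 were noted, and chance alone notes about 1 in 20 groups. In 8R CA1 total RNA, Rpl10 was at 9.34 log2 in replicate 4, above a nearest value of 8.45, Rpl11 was at 9.11 in replicate 4, below a nearest value of 9.38, and Rpl19 was at 8.85 in replicate 3, below a nearest value of 9.17. In 8R CA3 total RNA, replicate 4 was lowest for Rpl11 (9.21, nearest 9.46), Rpl15 (5.57, nearest 5.89), Rpl18 (9.35, nearest 9.71), Rpl39 (8.82, nearest 9.04) and Rpl7a (8.83, nearest 9.36). In 8R CA3 polysome RNA, replicate 4 was lowest for Rpl34 (8.42, nearest 8.97) and Rps21 (8.22, nearest 8.45) and highest for Rpl37a (6.12, nearest 5.7) and Rps15 (8.51, nearest 7.93). All but the Rpl19 value came from pool 4.

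In CA1 the response to ischemia and reperfusion differed between polysome and total RNA by the test of the difference itself for Rpl24 (-0.68 log2) and Rpl4 (-0.54 log2). For both, polysome RNA had the smaller difference. These were 2 of 51 tested genes, near the 3.41% of all tested genes whose ratio fell. When single arrays were left out, the Rpl24 call was lost in 8 fits and the Rpl4 call in 1.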

How the results depend on the processing

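In CA1 total RNA the count of called ribosomal protein genes was 30 to 39 when any 1 array was left out, and the members' median was 0.44 to 0.63 over all alternatives. The other medians were 0.16 to 0.31 in CA1 polysome, 0.25 to 0.41 in CA3 total and -0.01 to 0.13 in CA3 polysome RNA, and -0.42 to -0.2 and -0.38 to -0.14 for the ratio changes in CA1 and CA3, each closest to 0 with quantile normalization. With any 1 array left out, the counts were 0 to 9 in CA1 polysome, 10 to 32 in CA3 total and 0 to 3 in CA3 polysome RNA, 0 to 6 for the ratio change in CA1 and 0 to 9 in CA3. Between CA1 and CA3 they were 1 to 7 in 8R polysome, 0 to 1 in NIC total and 0 to 2 in NIC polysome RNA. The cause of these shifts was not tested.

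A pseudocount of 4 gave 0 genes between regions in NIC polysome RNA and a pseudocount of 64 gave 0, while no filter gave 2. The filter at the 50th percentile gave 7 in CA1 polysome RNA, 4 for the CA1 ratio change and 0 between regions in NIC polysome RNA. Quantile normalization gave 13 in CA1 polysome RNA, 16 in CA3 total RNA (15 higher and 1 lower), 37 for polysome against total RNA in NIC CA1 and, between regions, 0 in 8R polysome, 2 in NIC total and 0 in NIC polysome RNA. Centring each array on its median gave 1 in CA1 polysome RNA, 0 in CA3 polysome RNA and, between regions, 1 in 8R polysome and 0 in NIC polysome RNA. It moved the median of all tested genes for polysome against total RNA in 8R CA1 to 0.05, against 0.18 as deposited, and between regions in 8R polysome RNA to 0.02, against 0.19.

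The mean of all probe sets of a gene gave 7 in CA1 polysome RNA and 1 between regions in NIC total RNA. A fit of the compared groups only gave 1 in CA1 polysome RNA and, between regions, 1 in 8R polysome, 4 in NIC total and 6 in NIC polysome RNA. Array weights gave 25 in CA1 polysome RNA, 9 for the CA1 ratio change, 24 for the CA3 ratio change and, between regions, 19 in 8R polysome, 4 in NIC total and 3 in NIC polysome RNA. Calls over all 12716 tested genes rose too, to 2197 in CA1 polysome RNA, against 1059 in the main fit. For the ratio changes they were 1546 against 486 in CA1 and 2206 against 21 in CA3. Between regions they were 3359 against 3223 in 8R polysome, 1527 against 441 in NIC total and 5759 against 3609 in NIC polysome RNA. Without the 8R arrays of pool 4 the counts were 22 in CA1 polysome RNA, 5 in CA3 polysome RNA, 12 and 15 for the ratio changes in CA1 and CA3 and, between regions, 1 in 8R total, 14 in 8R polysome, 4 in NIC total and 4 in NIC polysome RNA. Over all tested genes that fit called 1127 in CA1 and 463 in CA3 polysome RNA. It called 1092 and 1258 for the ratio changes in CA1 and CA3.

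Pool numbers were not taken as a pairing in the main fit. Same-numbered arrays correlated over 0.1 in 20 of 21 pairs in 8R but in 1 of 18 in NIC. These correlations cannot settle whether the arrays share rats, so fits with the pool as a block are given beside the main fit. With the pool as a random block (consensus correlation 0.268) the counts were 12 in CA1 polysome RNA, 14 and 12 for the ratio changes in CA1 and CA3 and, between regions, 1 in 8R total, 16 in 8R polysome, 3 in NIC total and 4 in NIC polysome RNA. Over all tested genes the random block called 1308 in CA1 polysome RNA, and 1792 and 1356 for the ratio changes in CA1 and CA3. Between regions it called 1619 in 8R total, 4452 in 8R polysome, 906 in NIC total and 5406 in NIC polysome RNA. With the pool as a fixed block the counts between regions were 2 in 8R total, 31 in 8R polysome, 6 in NIC total and 6 in NIC polysome RNA. Over all tested genes the fixed block called 1874, 4516, 1169 and 5622 there.

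Of 3129 values of named genes under alternatives, 2802 kept their direction and side of the threshold, 174 lost a call, 141 gained one and 12 turned sign, all of Rpl10 or Rps29. In CA1 total RNA Rpl10 was 0.03 as reported, -0.09 with quantile normalization, -0.16 with array weights, -0.21 without pool 4 and -0.21 to 0.16 when any 1 array was left out. In CA3 total RNA it was -0.16 as reported and 0.13 with the mean of its probe sets. For polysome against total RNA in 8R CA1 it was -0.23 as reported, 0.09 with the mean of its probe sets and -0.44 to 0.01 when any 1 array was left out. Rps29 in CA1 total RNA was -0.06 to 0.04 when any 1 array was left out.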

Other observations

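Proteins of the mitochondrial ribosome are encoded by nuclear genes and are not part of the cytosolic ribosome. Of 71 such genes tested, 25 rose and 2 fell in CA1 total RNA (median 0.3 log2), with Mrpl45 at 0.92 log2, where 20.1% of all tested genes rose and 6.15% fell. In CA3 total RNA 9 rose and 1 fell (median 0.21), a share of rises below the 14.2% of all tested genes, of which 1.34% fell. In polysome RNA 2 rose and 2 fell in CA1 (median -0.05), against 4.87% of all tested genes that rose and 3.46% that fell, and 0 were called by limma in CA3 (median -0.07, with 3 higher and 6 lower at an unadjusted p under 0.05). The polysome to total ratio fell for 7 and rose for 0 in CA1 (median -0.33), against 3.41% of all tested genes that fell, and 0 were called by limma in CA3 (median -0.28, with 18 lower at an unadjusted p under 0.05). Polysome minus total medians were -0.04 in 8R CA1, -0.21 in 8R CA3, 0.26 in NIC CA1 and 0.02 log2 in NIC CA3.

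Rpl7l1, a paralog of Rpl7 that acts in ribosome assembly, rose by 0.81 log2 in CA1 total RNA (limma adjusted p = 3.43e-06) and by 0.52 log2 in CA3 total RNA (limma adjusted p = 0.00197). Its polysome to total ratio fell by 0.7 log2 in CA1 (limma adjusted p = 0.0188), a call lost without 8R total replicate 1, NIC total replicate 2, 8R polysome replicate 3 or NIC polysome replicate 3 (-0.69 to -0.62 log2).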
